A study of Mus musculus with 8 samples.

Results

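Genes of T cells and natural killer (NK) cells were followed in mouse undifferentiated pleomorphic sarcoma (UPS), a soft tissue tumour of the limb. The 10 genes, Cd3e, Cd3g, Cd4, Cd8a, Cd2, Lck, Gzma, Gzmb, Nkg7 and Foxp3, were taken by gene symbol from the 26667 genes of the count table, and all 10 were found there. Hind limb tumours came from KP mice, with Trp53 fl/fl and a further Cre-activated allele, or from KPH2 mice, which carried the same alleles together with Epas1 fl/fl, the conditional allele of the gene for HIF-2α. The labels give the KP tumours as wild type and the KPH2 tumours as Epas1 -/-. In both groups the tumours were started by injecting adenovirus expressing Cre-recombinase into the hind limb muscle of adult mice of both sexes on a mixed 129/C57BL/6 background, so this allele and Trp53 loss were shared and the deletion of Epas1 was the intended difference. Cre reached the cells at the injection site, the promoter that drives it is not given in the sources used here, and the mice kept their own immune system. The mice were killed either at a set time after injection or at the largest permitted tumour size, and the sources used here do not give which applied to each of the 8 tumours.

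RNA was sequenced from fixed, paraffin-embedded sections of 4 KP tumours (KP 5 to KP 8) and 4 KPH2 tumours (KPH2 1 to KPH2 4), with 1 library per tumour. KPH2 1 was the knockout tumour absent from the deposited table of normalised values over 7 tumours. It was taken to be the library that the study set aside as a technical outlier, and is shown apart. The sections of the study give its group sizes differently, so which library it set aside is not certain. Total counts ran from 6463221 to 13155510 per library. The labels do not state that each tumour came from a different mouse, so p-values measure the spread between these tumours. Epas1 was measured at 59.6, 82.2, 85.5 and 85.1 CPM, counts scaled to the library size, in KP 5 to KP 8, and at 32.0, 54.2, 37.8 and 42.4 CPM in KPH2 1 to KPH2 4. Every KPH2 tumour was thus below every KP tumour, although the difference did not pass the adjusted threshold over 7 tumours (log2 fold change −0.81, SE 0.19, adjusted p = 0.0742, edgeR quasi-likelihood test). The row for the ribosomal RNA precursor Rn45s took 1.08% to 2.79% of counts in the KP libraries and 3.58% to 9.83% in the KPH2 libraries, and its part in the levels was not tested.

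T cells recognise antigen through a receptor that signals by way of the CD3 chains, with CD4 or CD8 as coreceptor and the kinase LCK as the first enzyme of the cascade. Cytotoxic T cells and NK cells kill by releasing granules that hold granzymes, and regulatory T cells, which carry the transcription factor FOXP3, restrain the other T cells. In a section of tumour these transcripts come from whichever lymphocytes lie within it, so in bulk RNA fewer cells of a type and less RNA per cell cannot be told apart.

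The starts of the genes differed in the short motifs they held. RefSeq windows on GRCm38.p6, from 250 bases before to 50 bases after a transcript's start, were at hand for 8 of the 10 genes, in 10 windows, with no entry for Cd2 and Cd4. The cores bound by HIF proteins, ACGTG and GCGTG, the core bound by RUNX proteins, TGTGGT, and the TATA box, TATAAA, were searched on both strands. Shown here are the windows of Cd3e, Cd8a and the upstream start of Lck, which held a HIF core, and those of Gzmb and Nkg7, which held the RUNX core, because deletion of Epas1 separates the groups and because the granule genes shared the second motif. Capitals mark the matches, printed as ACCACA or CACGC where the match was on the other strand.
Cd3e, chr9:45009562-45009861, minus strand: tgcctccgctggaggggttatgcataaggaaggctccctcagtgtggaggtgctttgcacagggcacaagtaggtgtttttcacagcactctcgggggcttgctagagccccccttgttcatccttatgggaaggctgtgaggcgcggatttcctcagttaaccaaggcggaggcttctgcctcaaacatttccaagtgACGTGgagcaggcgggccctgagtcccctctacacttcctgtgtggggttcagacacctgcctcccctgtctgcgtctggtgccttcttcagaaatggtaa
Cd8a, chr6:71373177-71373476, plus strand: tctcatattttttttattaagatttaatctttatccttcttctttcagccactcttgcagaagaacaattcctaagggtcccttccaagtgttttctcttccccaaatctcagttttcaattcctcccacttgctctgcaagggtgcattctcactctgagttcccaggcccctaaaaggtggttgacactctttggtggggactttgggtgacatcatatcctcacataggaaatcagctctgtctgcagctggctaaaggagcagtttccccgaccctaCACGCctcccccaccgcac
Lck, upstream start, chr4:129573592-129573891, minus strand: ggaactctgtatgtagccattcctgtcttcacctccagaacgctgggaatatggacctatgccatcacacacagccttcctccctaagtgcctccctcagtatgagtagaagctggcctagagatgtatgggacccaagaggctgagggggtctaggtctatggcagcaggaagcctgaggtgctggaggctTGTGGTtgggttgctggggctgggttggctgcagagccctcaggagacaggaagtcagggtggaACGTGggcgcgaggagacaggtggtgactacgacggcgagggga
Gzmb, chr14:56262285-56262584, minus strand: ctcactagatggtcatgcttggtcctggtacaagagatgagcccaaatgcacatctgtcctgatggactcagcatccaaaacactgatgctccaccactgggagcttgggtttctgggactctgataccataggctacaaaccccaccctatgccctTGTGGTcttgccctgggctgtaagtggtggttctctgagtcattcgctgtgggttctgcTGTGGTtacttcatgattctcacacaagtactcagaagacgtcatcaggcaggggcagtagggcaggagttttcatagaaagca
Nkg7, chr7:43436888-43437187, plus strand: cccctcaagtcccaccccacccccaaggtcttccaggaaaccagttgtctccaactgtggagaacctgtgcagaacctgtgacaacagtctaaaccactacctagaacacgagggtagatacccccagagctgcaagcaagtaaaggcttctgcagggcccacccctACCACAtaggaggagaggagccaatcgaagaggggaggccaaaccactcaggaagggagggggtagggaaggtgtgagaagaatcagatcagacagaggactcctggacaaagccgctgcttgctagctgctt
The ACGTG match lay 51 bases before the Cd3e start and 6 bases past the upstream Lck start, and the GCGTG match of Cd8a lay 31 bases past its start. In all, 5 of the 10 windows held a HIF core, against 43.8% of the 32851 windows of the annotation. Both Foxp3 windows, not shown here, were among the 5, with GCGTG 55 and 53 bases before their starts. The RUNX core was found in 4 of the 10 windows, those of Gzma, Gzmb, Nkg7 and the upstream start of Lck, against 16.8% of all windows. Gzmb held it at 93 and at 34 bases before its start, Nkg7 at 83 bases and Gzma at 50 bases. Foxp3 alone among these windows held a TATA box, 32 bases before its first start, against 13.6% of all windows. ACGTG and GCGTG differ in 1 letter, and each can overlap a match of its own on the opposite strand. A match is a description of these letters only.

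All 10 genes were detected at low levels, with between 0 and 120 counts for a gene in a library. Of the 80 values of a gene in a tumour, 6 rested on 3 counts or fewer. Summed over the 10 genes, the level was 28.8, 35.1, 15.5 and 49.4 CPM in KP 5, 6, 7 and 8, and 18.1, 32.7 and 27.1 CPM in KPH2 2, 3 and 4, with 10.4 CPM in KPH2 1. KP 8 was the highest tumour and KPH2 1 the lowest, and the 3 other KPH2 tumours lay within the range of the KP tumours. Mean summed level was 32.2 ± 14.1 CPM for KP (SD, n = 4) against 26.0 ± 7.38 CPM for KPH2 2 to 4 (SD, n = 3). The difference in means, −6.23 CPM, was −0.48 CPM without KP 8, −2.29 CPM without KPH2 2, −9.60 CPM without KPH2 3 and −11.8 CPM without KP 7, so single tumours set its size.

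Between KPH2 2 to 4 and KP, no gene passed the test among the 9 that could be tested. Gzma was removed by the low-count filter. In the edgeR quasi-likelihood test over all genes, 0 of the 9 passed an adjusted p of 0.05 and 0 passed an unadjusted p of 0.05, with adjusted p from 0.521 to 0.898. DESeq2 on the same tumours called 0 of 10, and 0 of 10 at an unadjusted p of 0.05, and limma on the authors' log2 values called 0 of 9. Over all 14867 genes tested by edgeR, 1.96% were called (0.72% lower and 1.24% higher in KPH2) and 17.8% had an unadjusted p under 0.05. The fold change was below 0 for 8 of the 9 genes, against 52% of all genes, and its median was −0.50 against −0.02 for all genes. That median was −0.27 without KPH2 2 (7 of 9 below 0), −0.29 without KP 8 (6 of 9 below 0) and −0.82 with KPH2 1. With KPH2 1 included, 0 of the 9 were called by edgeR (0 at an unadjusted p of 0.05), against 0.00675% of 14805 genes, and 8 of the 9 were again below 0, against 49.1% of genes. The groups overlapped in all 10 genes, whereas 16.8% of all tested genes had groups that did not overlap. The 95% intervals of all 9 held no change. They excluded a 2-fold rise for 5 genes, Cd3g, Cd8a, Cd2, Lck and Foxp3, and a 2-fold fall for 1, Cd4, so falls of that size in the others were not excluded at this depth and number of tumours.

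**Figure D1:**
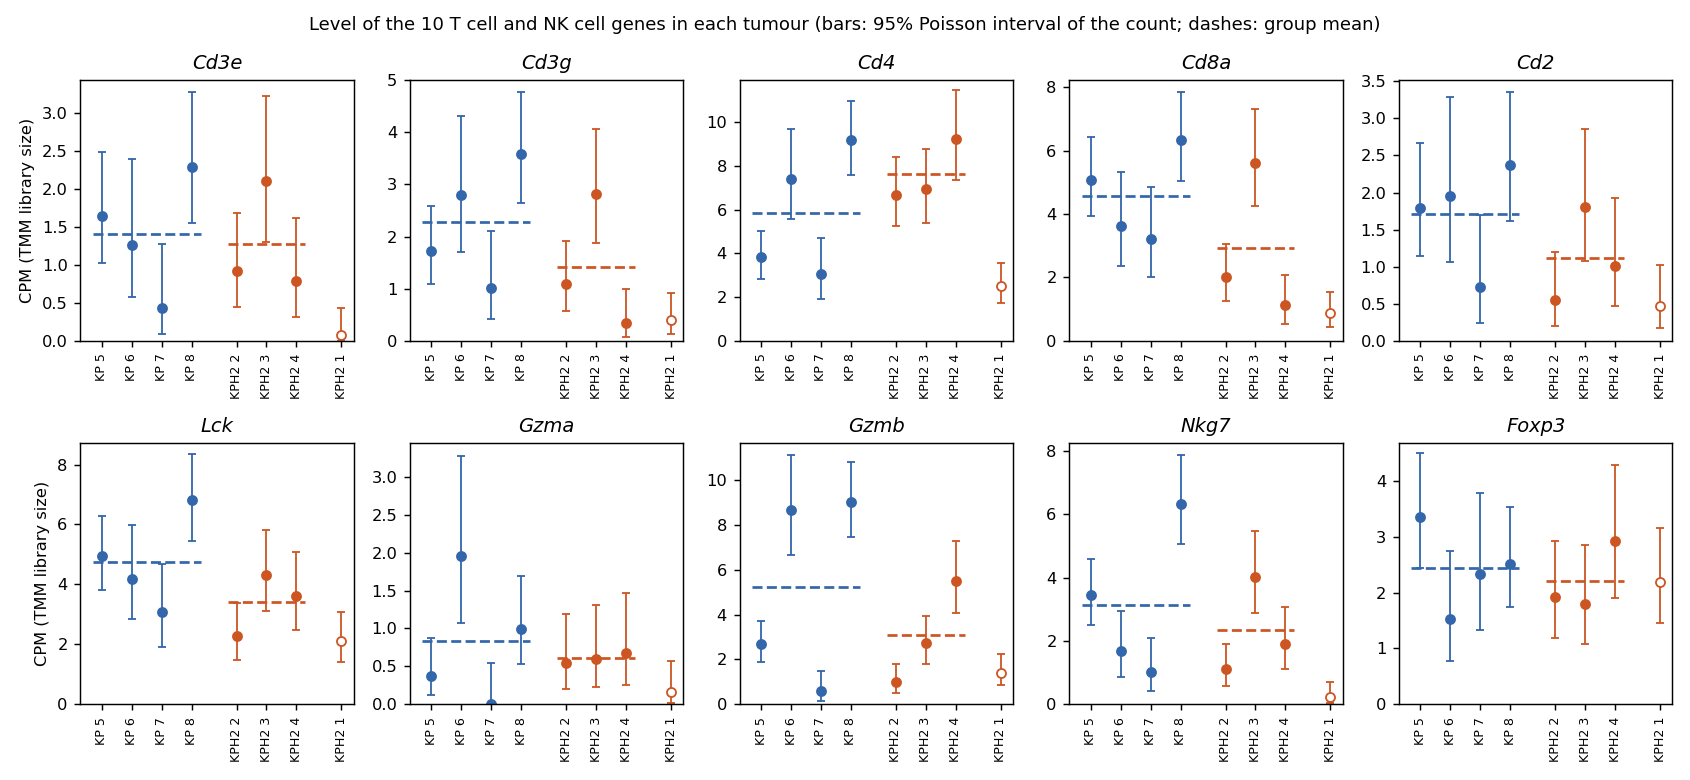
Level of each gene in each tumour, in CPM on a linear axis from 0, for KP 5 to KP 8 (blue), KPH2 2 to 4 (orange) and KPH2 1 (open orange). Bars are 95% Poisson intervals of the count, which cover counting error only, and dashes are group means over 4 and 3 tumours. The groups overlap in all 10 panels, and Gzmb spans 0.583 to 9.02 CPM within the KP tumours alone.

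Cd3e (chr9:44998735-45009663 in GRCm38) encodes an invariant signalling chain of the T cell receptor. It was measured at 1.64, 1.26, 0.437 and 2.29 CPM in KP 5, 6, 7 and 8, against 0.914, 2.11 and 0.787 CPM in KPH2 2, 3 and 4, with 0.0784 CPM, a single count, in KPH2 1. The 3 KPH2 tumours lay inside the KP range, and only KPH2 1 was below it. The log2 fold change was −0.20 (95% interval −1.50 to 1.10, adjusted p = 0.898 by edgeR), and −0.60 with KPH2 1 (adjusted p = 0.754).

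Cd3g, the neighbouring gene for another CD3 chain (chr9:44969572-44980431), was at 1.72, 2.79, 1.02 and 3.59 CPM in KP and 1.10, 2.81 and 0.337 CPM in KPH2 2 to 4, with 0.392 CPM in KPH2 1. KPH2 3 was as high as KP 6, whereas KPH2 4 and KPH2 1 were below every KP tumour. Its log2 fold change was −0.70 (−2.22 to 0.83, adjusted p = 0.640 by edgeR), the second most negative of the 9. Lck, the kinase that phosphorylates the CD3 chains (chr4:129548344-129573641), was at 4.93, 4.19, 3.06 and 6.80 CPM in KP and 2.29, 4.32 and 3.60 CPM in KPH2 2 to 4, with 2.12 CPM in KPH2 1. KPH2 2 and KPH2 1 were below the KP range and the other two inside it. With a log2 fold change of −0.50 (−1.32 to 0.32, adjusted p = 0.521 by edgeR), Lck had the smallest p of the 9 genes. Cd2, an adhesion receptor of T cells and NK cells (chr3:101275908-101287939), was at 1.79, 1.96, 0.729 and 2.37 CPM in KP and 0.548, 1.81 and 1.01 CPM in KPH2 2 to 4, with 0.470 CPM in KPH2 1. Here again KPH2 2 and KPH2 1 were below the lowest KP tumour, and the log2 fold change was −0.64 (−1.84 to 0.57, adjusted p = 0.582 by edgeR).

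The coreceptors had fold changes of opposite sign. Cd4, the coreceptor of helper and regulatory T cells (chr6:124864693-124888247), was at 3.81, 7.41, 3.06 and 9.17 CPM in KP 5, 6, 7 and 8, against 6.67, 6.93 and 9.22 CPM in KPH2 2, 3 and 4. KPH2 1 was at 2.51 CPM, below every other tumour, whereas KPH2 4 was the highest of all 8. Cd4 was the single gene with a positive fold change, 0.36 on the log2 scale (−0.54 to 1.26, adjusted p = 0.690 by edgeR), and 0.10 with KPH2 1 (adjusted p = 0.947). In mice some dendritic cells carry CD4 as well, and Itgax, the dendritic cell integrin CD11c, was higher in KPH2 2 to 4 (27.1, 31.1 and 27.8 CPM) than in KP (9.94, 12.3, 10.6 and 15.3 CPM). That difference passed the threshold (log2 fold change 1.24, SE 0.19, adjusted p = 0.0239 by edgeR), but KPH2 1 was at 10.6 CPM and the call was lost with it (adjusted p = 0.220). It was also lost without KP 6, KP 7, KPH2 2, KPH2 3 or KPH2 4, with log2 fold changes of 1.18 to 1.28 and adjusted p from 0.0570 to 0.0753 by edgeR. Of the 6 tested dendritic cell genes, Itgax among them, 4 were below 0, with a median of −0.15. The part of such cells in the Cd4 level was not tested.

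Cd8a, the coreceptor of cytotoxic T cells (chr6:71373427-71379171), was at 5.08, 3.63, 3.21 and 6.34 CPM in KP and 2.01, 5.62 and 1.12 CPM in KPH2 2, 3 and 4, with 0.862 CPM in KPH2 1. KPH2 3 was the second highest of all 8 tumours, and the other 3 KPH2 tumours were below every KP tumour. The log2 fold change was −0.66 (−1.87 to 0.55, adjusted p = 0.572 by edgeR). Without KPH2 3 the groups no longer overlapped. Fewer tumours separate more easily, and the share of all genes without overlap in that set is not given here. The log2 fold change was then −1.55, with an unadjusted p of 0.00966 and an adjusted p of 0.174 by edgeR. Leaving out KPH2 4 or KPH2 2 gave −0.28 and −0.44 instead, so the estimate for Cd8a moved with any of the 3 KPH2 tumours. Cd3g moved alongside, to −1.65 without KPH2 3 (adjusted p = 0.324). Cd8b1, for the partner chain of the CD8 coreceptor, was at 2.39, 1.54, 1.46 and 2.98 CPM in KP and 0.640, 2.01 and 0.225 CPM in KPH2 2 to 4, with 0.705 CPM in KPH2 1, again with KPH2 3 as the one KPH2 tumour inside the KP range.

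**Figure D2:**
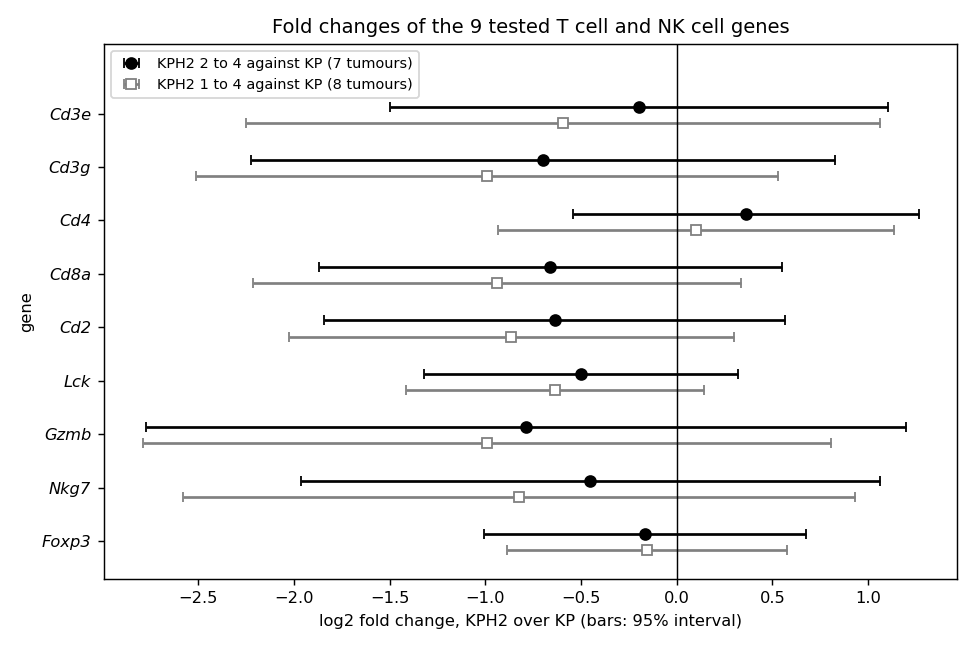
Log2 fold change of the 9 tested genes, KPH2 over KP, with 95% intervals, over 7 tumours (filled circles) and with KPH2 1 (open squares). Every interval crosses 0, and Cd4 is the one gene with estimates above 0, at 0.36 and 0.10.

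The ratio of Cd8a to Cd4 was 1.33, 0.491, 1.05 and 0.692 in KP 5, 6, 7 and 8, and 0.301, 0.812 and 0.122 in KPH2 2, 3 and 4, with 0.344 in KPH2 1. Of the 4 KPH2 tumours, 3 had a ratio below the lowest KP tumour, and KPH2 3 was inside the KP range. The mean ratio was 0.891 ± 0.374 for KP (SD, n = 4) against 0.412 ± 0.358 for KPH2 2 to 4 (SD, n = 3), and the groups overlapped. This ratio was looked at after the values were seen and was not tested.

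The granule genes varied several-fold among the KP tumours. Gzmb, the granzyme that starts apoptosis by cleaving caspases (chr14:56258836-56262334), was at 2.69, 8.66, 0.583 and 9.02 CPM in KP 5, 6, 7 and 8, against 1.01, 2.71 and 5.51 CPM in KPH2 2, 3 and 4, with 1.41 CPM in KPH2 1. KP 6 and KP 8 stood above all other tumours and KP 7 below all, a ratio of 15.5 between the highest and the lowest KP tumour, against 1.98 for Cd8a. The log2 fold change was −0.79 (−2.78 to 1.20, adjusted p = 0.690 by edgeR), with the widest interval of the 9 genes. Nkg7, a granule membrane protein of cytotoxic T cells and NK cells (chr7:43437138-43438246), was at 3.44, 1.68, 1.02 and 6.34 CPM in KP and 1.10, 4.01 and 1.91 CPM in KPH2 2 to 4, with 0.235 CPM in KPH2 1. KPH2 2 to 4 all lay inside the KP range, and the log2 fold change was −0.45 (−1.97 to 1.06, adjusted p = 0.780 by edgeR).

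Gzma, the tryptase-like granzyme abundant in NK cells (chr13:113093824-113100981), had 5, 14, 0 and 13 counts in KP 5, 6, 7 and 8, and 6 counts in each of KPH2 2, 3 and 4, with 2 counts in KPH2 1. These correspond to 0.374, 1.96, 0 and 0.993 CPM and to 0.548, 0.602 and 0.675 CPM, with 0.157 CPM in KPH2 1. The absence of counts in KP 7 allows a level of up to 0.437 CPM by the floor of 3 counts, and of up to 0.538 CPM by the 2-sided 95% Poisson interval drawn in the plot of levels by tumour. The KPH2 tumours lay between the KP tumours. Mean log2 CPM was higher by 0.14 in KPH2 2 to 4, whereas mean CPM was lower, at 0.609 ± 0.0635 (SD, n = 3) against 0.831 ± 0.855 (SD, n = 4) in KP. The exact 2-sided permutation test on mean log2 CPM gave p = 0.914 over 35 splits of the tumours, where 0.0286 is the smallest p this design can give. With KPH2 1 included the sign turned, to −0.16 (exact permutation p = 0.886).

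Foxp3 varied little among the KP tumours, by a ratio of 2.19 between highest and lowest, at 3.36, 1.54, 2.33 and 2.52 CPM in KP 5, 6, 7 and 8, against 1.92, 1.81 and 2.92 CPM in KPH2 2, 3 and 4. KPH2 1, at 2.19 CPM, was here in the middle of the range, unlike for most of the other genes. The log2 fold change was −0.17 (−1.01 to 0.68, adjusted p = 0.865 by edgeR). Foxp3 (chrX:7579676-7595243 in GRCm38) overlaps Ccdc22 and Ppp1r3f on the opposite strand, and 10.5% of its 100-base windows were shared with Flicr, a transcript within it, so part of its reads could be assigned elsewhere. Ccdc22 was at 9.50 to 19.97 CPM over the 8 tumours and Ppp1r3f at 2.66 to 5.25 CPM, and the strand setting of the counting is not given in the sources used here. None of the other 9 genes shared a 100-base window with another gene, although Cd3e overlaps the antisense gene Gm48719. On the same strand, Gm48720 overlaps Cd3e and Mir8119 overlaps Lck.

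Per kilobase of exon, the order of the mean levels was led in KP by Gzmb at 3.65 ± 2.96 CPM per kb and Nkg7 at 3.54 ± 2.70 CPM per kb (SD, n = 4). Cd3g (2.23), Lck (2.05), Cd4 (1.89), Cd2 (1.48) and Cd8a (1.46) followed, each closer to its neighbour than its own SD. Cd3e at 0.963 CPM per kb, Gzma at 0.826 CPM per kb and Foxp3 at 0.595 CPM per kb came last. In KPH2 2 to 4 Nkg7 led at 2.66 ± 1.71 CPM per kb (SD, n = 3), Cd4 came second at 2.45 ± 0.452 CPM per kb, and Foxp3 was again last at 0.541 CPM per kb. Cd4 was the gene that changed place most, to second place in KPH2, without passing the test between groups.

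Most of the genes ranked the tumours alike. KP 8 was the highest of the 8 tumours for 7 of the 10 genes, against 13.1% of all tested genes, and KP 7 the lowest KP tumour for 9. KP 8 was also highest for 41.7% of listed pan-leukocyte genes and 42.9% of macrophage genes, but for 0% of mast cell and skeletal muscle genes. KPH2 1 was the lowest tumour for 6 of the 10 genes, against 16.2% of all tested genes, and inside the KP range for 3, Gzma, Gzmb and Foxp3. KPH2 3 was inside the KP range for all 10 and the highest of KPH2 2 to 4 for 6. KPH2 4 led those 3 tumours for the remaining 4, Cd4, Gzma, Gzmb and Foxp3. The ratio of Gzmb to the sum of Cd3e and Cd3g accordingly ran from 0.400 in KP 7 to 2.14 in KP 6 among KP tumours, and was 0.500, 0.551 and 4.90 in KPH2 2, 3 and 4 and 3.0 in KPH2 1, where KPH2 4 rested on 10 counts of the CD3 chains and KPH2 1 on 6.

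The 5 genes closest to this pattern were found among 14858 other tested genes, by the root mean square difference over the 8 tumours between a gene's standardised log2 CPM and the standardised mean of the members. They were Ikzf3 (0.194), a lymphocyte transcription factor, Cxcr3 (0.214), a chemokine receptor of activated T cells, Cd247 (0.217), the CD3 zeta chain, Gm5088 (0.242) and Gimap3 (0.260), a GTPase of lymphocytes. By the same measure Cd2 was the closest of the members, at 0.276, and Foxp3 the farthest, at 1.26, with 6513 as its rank among the tested genes. None of the 5 was called between the groups, with log2 fold changes from −0.63 for Gimap3 to −0.20 for Gm5088.

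**Figure D3:**
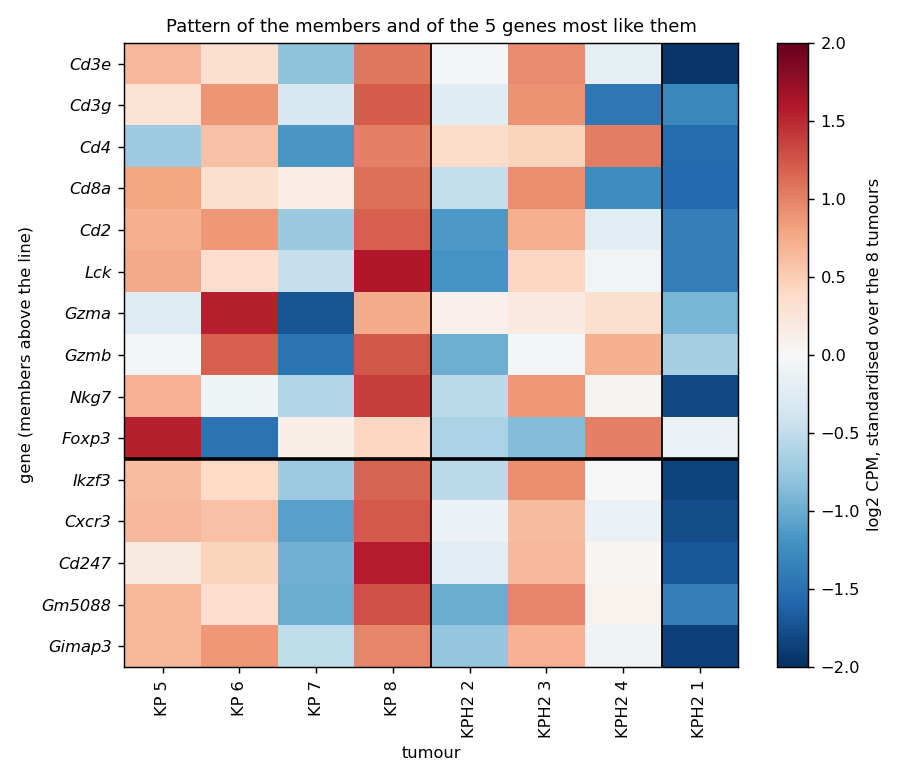
Log2 CPM of the 10 genes (above the line) and of the 5 genes of closest pattern, each standardised over the 8 tumours, with red above and blue below a gene's mean. KP 8 is red in nearly every row and KPH2 1 blue in most, and Foxp3 departs from the others, with its highest value in KP 5 (3.36 CPM).

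The leukocyte marker Ptprc was lower in KPH2 too, without passing the test. It encodes the pan-leukocyte phosphatase CD45 and was at 141, 267, 149 and 279 CPM in KP 5, 6, 7 and 8, against 111, 131 and 137 CPM in KPH2 2, 3 and 4, with 107 CPM in KPH2 1. All KPH2 tumours were below all KP tumours, with a log2 fold change of −0.74 (SE 0.27, adjusted p = 0.208 by edgeR) that did not pass the threshold. Relative to 100 CPM of Ptprc, the 10 genes together summed to 20.4, 13.1, 10.4 and 17.7 CPM in KP and to 16.3, 25.0 and 19.9 CPM in KPH2 2 to 4, with 9.76 CPM in KPH2 1. The means were 15.4 ± 4.51 (SD, n = 4) and 20.4 ± 4.39 (SD, n = 3), in the opposite order to that of the summed CPM, and the groups overlapped.

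Set against Ptprc in this way, Cd4 was 2.70, 2.78, 2.06 and 3.29 CPM per 100 CPM of Ptprc in KP and 6.01, 5.30 and 6.75 in KPH2 2 to 4. These groups did not overlap, with means of 2.71 ± 0.505 (SD, n = 4) and 6.02 ± 0.730 (SD, n = 3), but KPH2 1 was at 2.35, inside the KP range. Of all tested genes, 28.1% were higher in KPH2 2 to 4 without overlap once divided by Ptprc, so a gene of this kind was common on that scale. Cd8a was 3.60, 1.36, 2.15 and 2.27 in KP and 1.81, 4.30 and 0.824 in KPH2 2 to 4 per 100 CPM of Ptprc, and overlapped. The other 8 genes overlapped too. This scale was chosen after the values were seen.

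**Figure D4:**
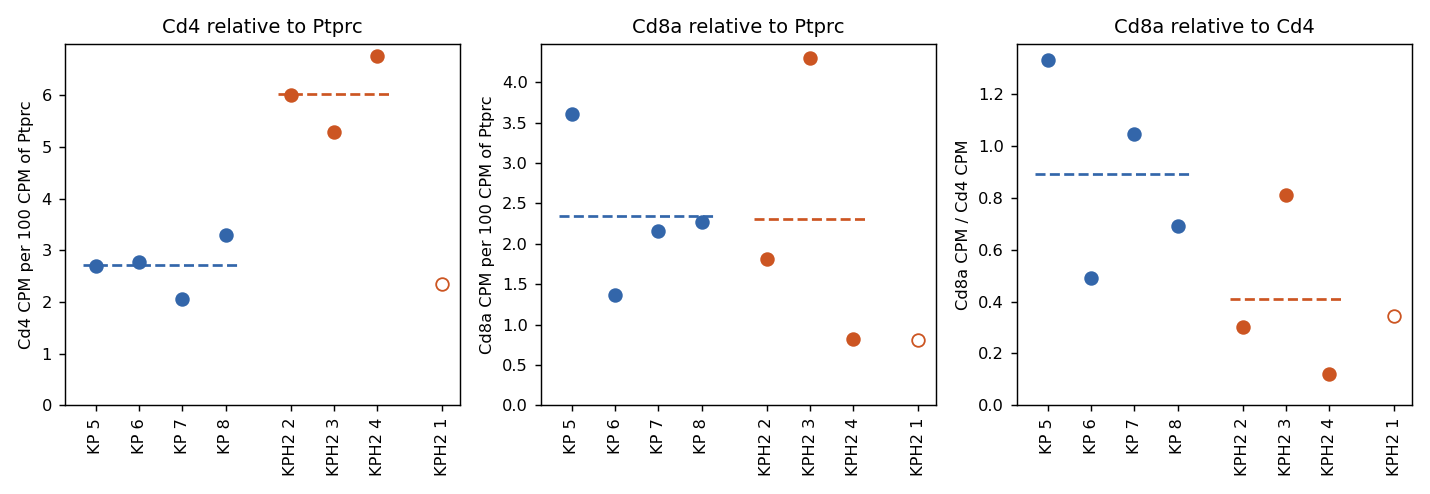
Cd4 and Cd8a per 100 CPM of Ptprc, and Cd8a over Cd4, in each tumour, for KP (blue), KPH2 2 to 4 (orange) and KPH2 1 (open orange), with dashes at the group means and axes from 0. Cd4 over Ptprc separates KPH2 2 to 4 from KP (5.30 or more against 3.29 or less), with KPH2 1 at 2.35, and the other ratios overlap.

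Other genes of the same pathways were read from lists. Of 21 further genes of T cell receptor signalling, 18 were tested, of which 15 lay below 0 and 3 above 0 on the log2 fold change scale (median −0.47). None was called by edgeR, and 3 had an unadjusted p under 0.05. The smallest p values belonged to Themis, a regulator of T cell selection, at 1.94, 1.40, 1.17 and 2.29 CPM in KP and 0.823, 0.903 and 0.337 CPM in KPH2 2 to 4 (log2 fold change −1.31, SE 0.46, adjusted p = 0.185 by edgeR), and to Lcp2, the adaptor SLP-76 (−0.72, SE 0.26, adjusted p = 0.198). Themis did not overlap between the groups, and KPH2 1 was at 0.0784 CPM. Among 18 genes of T cell identity and costimulation, 15 were tested, 10 below and 5 above 0, with a median of −0.52, 0 called by edgeR and 2 with an unadjusted p under 0.05. Tcf7, a transcription factor of naive and memory T cells that other tissues also express, was at 11.7, 8.52, 10.2 and 7.72 CPM in KP and 14.99, 14.6 and 14.2 CPM in KPH2 2 to 4 (log2 fold change 0.60, SE 0.21, adjusted p = 0.185 by edgeR). KPH2 1, at 4.86 CPM, was the lowest of all 8 tumours for Tcf7, and with it the log2 fold change was 0.34 (adjusted p = 0.696). DESeq2 and limma called 0 in both lists.

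Of 25 further granule and NK cell genes, 13 passed the filter on low counts, all 13 with a negative log2 fold change and with a median of −0.76. None was called by edgeR, DESeq2 or limma, and 1 had an unadjusted p under 0.05 by edgeR. That gene was Gzmm, a granzyme of NK cells, at 1.94, 1.26, 1.604 and 1.76 CPM in KP and 1.01, 1.004 and 0.787 CPM in KPH2 2 to 4 (log2 fold change −0.83, SE 0.35, adjusted p = 0.262 by edgeR). Its groups did not overlap, although KPH2 1, at 1.49 CPM, was inside the KP range. Itga2, the integrin chain CD49b of NK cells that stromal cells and platelets also carry, came next (−1.42, SE 0.62, adjusted p = 0.282). KP 5 at 53.8 CPM and KPH2 1 at 42.1 CPM were far above the other tumours for Itga2 (5.52 to 17.6 CPM), and with KPH2 1 the log2 fold change was −0.44 (adjusted p = 0.824). The highest tumour was KP 6 or KP 8 for 21 of these 25 genes, against 23.1% of all tested genes. The share was 75% for pan-leukocyte, 71.4% for macrophage and 70% for neutrophil genes, so it was not particular to granule and NK cell genes, and the choice of these 2 tumours was made after the values were seen. The granzyme Gzmc was among them, at 0.747, 26.8, 1.90 and 14.97 CPM in KP 5, 6, 7 and 8, against 0.914, 1.91 and 5.74 CPM in KPH2 2, 3 and 4, with 0.627 CPM in KPH2 1. The pore-forming protein Prf1 was highest in the same tumours, at 3.49 CPM in KP 6 and 4.13 CPM in KP 8 against 0.313 to 1.91 CPM in the others. The NK cell receptor Ncr1 was at 2.93 and 1.53 CPM in KP 6 and KP 8 and at 0.146 to 0.675 CPM in the other tumours.

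Of 12 further genes associated with regulatory T cells, 7 were tested, 4 below and 3 above 0, with a median of −0.39, and 1 was called. Lrrc32, which encodes the latent TGF-β anchor GARP and is also made by endothelial cells and platelets, was at 36.2, 38.1, 42.7 and 42.4 CPM in KP and fell to 9.69, 11.5 and 8.55 CPM in KPH2 2 to 4 (log2 fold change −2.02, SE 0.17, adjusted p = 0.00514 by edgeR). KPH2 1 lay below the KP range too, at 15.04 CPM, but over 8 tumours the call was lost (adjusted p = 0.0544). It stood without any single one of the 7 tumours, with adjusted p from 0.00954 to 0.0250 by edgeR, and was lost with the muscle score (−2.18, adjusted p = 0.138) or the pan-leukocyte score (−1.91, adjusted p = 0.185), the mean log2 CPM of those marker lists, as a covariate, at a similar log2 fold change. Both scores separated KPH2 2 to 4 from KP, so those fits cannot tell the group from the score. The share of the Lrrc32 level that came from T cells was not tested. Among 9 checkpoint genes, 7 were tested, 4 below and 3 above 0, with a median of −0.28, 0 called by edgeR and 3 with an unadjusted p under 0.05. Tigit, an inhibitory receptor of T cells and NK cells, was at 0.971, 0.838, 0.292 and 1.07 CPM in KP and 2.92, 2.11 and 3.15 CPM in KPH2 2 to 4, with 1.10 CPM in KPH2 1. All 4 KPH2 tumours were above all KP tumours, and the log2 fold change of 1.71 (SE 0.42) had an adjusted p of 0.0823 by edgeR, while DESeq2 called Tigit and limma called 0 of the list. Lag3, another inhibitory receptor, was at 2.84, 4.33, 3.65 and 1.76 CPM in KP and 6.76, 6.02 and 5.85 CPM in KPH2 2 to 4, with 3.45 CPM in KPH2 1 (log2 fold change 0.98, SE 0.34, adjusted p = 0.183 by edgeR).

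**Figure D5:**
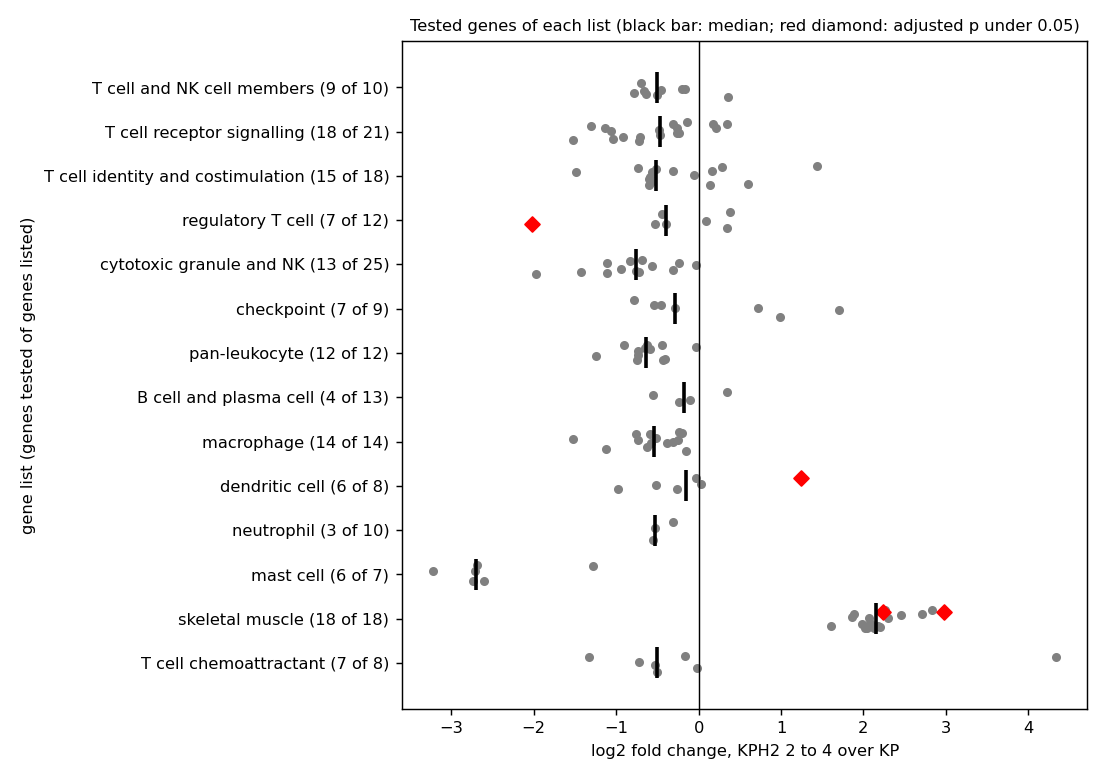
Log2 fold change, KPH2 2 to 4 over KP, of the tested genes of each list (grey points), with the median of a list as a black bar and genes past an adjusted p of 0.05 as red diamonds. The medians of the T cell and NK cell lists lie between −0.76 and −0.28, the skeletal muscle median at 2.15, and the red diamonds are Lrrc32, Itgax, Eno3 and Neb.

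Marker lists of other cells also lay to one side of 0 in this contrast. All 12 pan-leukocyte genes had a negative log2 fold change (median −0.64), 0 were called by edgeR and 8 had an unadjusted p under 0.05, led by Arhgdib (−1.24, SE 0.25, adjusted p = 0.0503) and Itgb2 (−0.74, SE 0.18, adjusted p = 0.0853). DESeq2 called 4 of the 12 lower and limma 1, Arhgdib. KPH2 1 was the highest of all 8 tumours for Arhgdib, at 159.7 CPM against 76.0 to 136.5 CPM in KP, and with it the log2 fold change was −0.54 (adjusted p = 0.632). The summed level was 776 to 1102 CPM in KP, 594 to 639 CPM in KPH2 2 to 4 and 610 CPM in KPH2 1. All 14 macrophage genes were likewise below 0 (median −0.55), with 0 called by edgeR and 4 with an unadjusted p under 0.05, and with summed levels of 2941 to 4853 CPM in KP, 2172 to 3158 CPM in KPH2 2 to 4 and 2455 CPM in KPH2 1. The leading 2 were Mrc1, the mannose receptor (−1.53, SE 0.39, adjusted p = 0.0951), and Cd163, the haemoglobin scavenger receptor (−1.13, SE 0.39, adjusted p = 0.183), of which DESeq2 called Mrc1 and limma neither. The 6 tested mast cell genes of 7 were below 0 with a median of −2.71 and 0 called by edgeR, led by the IgE receptor chain Fcer1a (−3.22, SE 0.75, adjusted p = 0.0708) and Kit (−1.29, SE 0.38, adjusted p = 0.133), and all 6 had an unadjusted p under 0.05. DESeq2 tested only 3 of the mast cell genes and called these 2, and limma called 0 of 6. With KPH2 1 the median of the mast cell genes was −1.55, Fcer1a was −1.59 and 1 gene had an unadjusted p under 0.05. Their summed level was 73.5 to 450 CPM in KP, 22.7 to 53.8 CPM in KPH2 2 to 4 and 132 CPM in KPH2 1, and KP 5 was the highest tumour for all 7 genes.

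All 18 skeletal muscle genes had positive fold changes (median 2.15), with Eno3 (2.98, SE 0.31, adjusted p = 0.00922) and Neb (2.23, SE 0.42, adjusted p = 0.0430) called by edgeR, 15 called by DESeq2 and 1, Eno3, called by limma, and summed levels of 1737 to 3241 CPM in KP, 4161 to 18720 CPM in KPH2 2 to 4 and 1425 CPM in KPH2 1. Neither was called with KPH2 1 (adjusted p = 0.159 and 0.243 by edgeR), and Neb was also lost without any of KP 5 to 8, KPH2 2 or KPH2 3 (0.0634 to 0.130). KPH2 3, the tumour with the highest muscle level for all 18 genes, was also the KPH2 tumour highest for Cd3e, Cd3g, Cd8a, Cd2, Lck and Nkg7. Over the 7 tumours both scores separated the groups. The muscle score was 4.23 to 5.64 in KP and 5.67 to 7.95 in KPH2 2 to 4. The pan-leukocyte score was 5.41 to 5.88 in KP and 4.91 to 5.12 in KPH2 2 to 4. A fit with either score as a covariate therefore cannot tell the group from the score. With the muscle score as a covariate the median of the 9 genes was −1.30, Cd8a was −2.56 (unadjusted p = 0.00527, adjusted p = 0.321) and Cd3g −2.79 (adjusted p = 0.560), and 0 were called by edgeR. With the pan-leukocyte score as a covariate the median turned to 0.88, with 7 of the 9 above 0, Cd4 at 2.13 (unadjusted p = 0.00540, adjusted p = 0.330) and 0 called. The calls of Lrrc32, Itgax, Eno3 and Neb were all lost with either score (adjusted p from 0.138 to 0.781 by edgeR). The log2 fold changes with the muscle and the pan-leukocyte score were 1.17 and 1.88 for Itgax, 2.20 and 2.74 for Eno3, and 0.67 and 2.51 for Neb. Eno3 and Neb are themselves among the 18 genes averaged in the muscle score, so their values with that score are partly circular. The part of muscle and of leukocyte content in the levels of the 10 genes was not tested further.

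B cell and plasma cell genes had 4 of 13 tested, 3 below and 1 above 0 (median −0.17, 0 called by edgeR and 0 with an unadjusted p under 0.05), led by Cd22 (0.35, SE 0.37, adjusted p = 0.681) and Cr2 (−0.24, SE 0.32, adjusted p = 0.754). Their summed level was 11.8 to 59.2 CPM in KP, 27.8 to 39.9 CPM in KPH2 2 to 4 and 34.7 CPM in KPH2 1. Neutrophil genes had 3 of 10 tested, all 3 below 0 (median −0.53, 0 called and 0 with an unadjusted p under 0.05), led by S100a8 (−0.53, adjusted p = 0.855) and S100a9 (−0.56, adjusted p = 0.878), with summed levels of 1.34 to 30.9 CPM in KP, 1.20 to 19.9 CPM in KPH2 2 to 4 and 7.76 CPM in KPH2 1. DESeq2 and limma called 0 B cell and 0 neutrophil genes. Of 8 dendritic cell genes 6 were tested, 4 below and 2 above 0 (median −0.15), and Itgax, given above beside Cd4, was the 1 called. Their summed level was 25.5 to 37.6 CPM in KP, 39.2 to 48.9 CPM in KPH2 2 to 4 and 22.1 CPM in KPH2 1.

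Among 8 chemokines that attract T cells, 7 were tested, 6 below and 1 above 0 (median −0.50), 0 were called by edgeR and 2 had an unadjusted p under 0.05. Ccl21a, a CCR7 ligand made by lymphatic vessels and lymph node stroma, was at 1.64, 0.978, 0.146 and 0 CPM in KP 5, 6, 7 and 8, against 7.86, 30.0 and 6.64 CPM in KPH2 2, 3 and 4. KPH2 1, at 1.33 CPM, was within the KP range, and the log2 fold change of 4.34 (SE 0.99) had an adjusted p of 0.0708 by edgeR. Cxcl11, a ligand of CXCR3, had a log2 fold change of −1.33 (SE 0.54, adjusted p = 0.245). DESeq2 and limma both called Ccl21a higher. Ccr7, the receptor for Ccl21a, had a log2 fold change of −0.05 and Cxcr3 one of −0.61, with adjusted p of 0.968 and 0.680 by edgeR.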

How the data were processed

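RNA from fixed tumour sections was depleted of ribosomal RNA and made into stranded libraries. The authors aligned single reads to GRCm38 with STAR 2.4, assigned uniquely aligned reads to RefSeq genes with HTSeq 0.6.1, and deposited the raw counts of 8 tumours. The authors also deposited log2 values from the regularized log transformation of DESeq2, over 7 and over 8 tumours, which shrinks low counts.

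The counts were tested with edgeR 4.0.16 under R 4.3.3 (TMM normalisation, low-count filter with minimum count 10 and minimum total 15, robust quasi-likelihood test) on KP 5 to 8 and KPH2 2 to 4, without covariates. P-values were adjusted by Benjamini-Hochberg across every tested gene, and 0.05 was the threshold. CPM used TMM library sizes over 8 tumours, and log2 CPM a prior count of 2. Per-kilobase levels used coding and untranslated exons of the GRCm38 annotation. DESeq2 1.42.0 and limma 3.58.1 were alternatives, with the others given in the closing section. No 2 libraries agreed within sampling noise, so each counted once, and total counts ranged from 6463221 to 13155510. Intervals of single counts cover counting error only.

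Members and lists were chosen with earlier results of these data known. All members are named. From each list the called genes are named, at most 4, or the 2 with the smallest p where none was called, and some items are not reported here. Gzmc, Prf1, Ncr1, Cd8b1 and Ccr7 were chosen after their values were seen.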

Additional observations from a re-analysis of the deposited data

How the results depend on the processing

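No paired analysis was possible because the replicate numbers of the labels are not shared between the groups. No member was called under any of the alternatives run, and 0 had an unadjusted p under 0.05 except Cd3g and Cd8a without KPH2 3 or with the muscle score, and Cd4 and Gzmb with the pan-leukocyte score. Over all genes, 292 calls became 1 with KPH2 1, 1175 with DESeq2 (21743 genes tested, against 14867), 3 with the muscle score, 0 with the pan-leukocyte score and 55 to 349 when each tumour was left out in turn. The 4 calls among the listed genes became 0 with KPH2 1, 26 with DESeq2 (170 tested, against 130) and 2 to 10 when each tumour was left out. Genes with groups that did not overlap went from 0 to 1 on the Ptprc scale (Cd4), and were 0 to 1 when each tumour was left out (Cd8a, without KPH2 3). The share over all genes is not given here for the sets with a tumour left out. Both scores separated KPH2 2 to 4 from KP, so fits with them cannot tell the group from the score. With the pan-leukocyte score the log2 fold change turned positive for Cd3e (0.88), Cd3g (1.01), Cd2 (0.60), Lck (0.36), Gzmb (2.83) and Nkg7 (1.06). Leaving out each tumour in turn gave −0.77 to 0.12 for Cd3e, −1.09 to 0.13 for Nkg7, −0.41 to 0.0355 for Foxp3, −1.65 to −0.25 for Cd3g, −1.55 to −0.28 for Cd8a, −1.17 to −0.29 for Cd2, −0.71 to −0.27 for Lck, −1.51 to −0.36 for Gzmb, 0.16 to 0.66 for Cd4 and −0.50 (without KP 7) to 0.66 for Gzma, which was −0.16 with KPH2 1. The causes were not tested. Under a mean count of at least 50, Cd4 was the only member tested. Depth limits the values of Cd3e and Cd2, with at most 31 counts in a library, and of Gzma, with at most 14.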
